A study of Mus musculus with 52 samples.

Results

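Keratins and claudins, the gene families of the intermediate filaments and tight junctions of epithelial cells, were followed in 52 mammary tumours of aged and young mice. The members were all genes whose symbol is Krt or Cldn followed by digits only: 73 of the 47729 gene IDs in the tables, of which 50 are keratins and 23 are claudins. The tables give Ensembl IDs, symbols came from the annotation, and 505 IDs had no symbol. Among the keratins, Krt7, Krt8, Krt18 and Krt19, typical of carcinomas and simple epithelium, were kept apart from Krt1, Krt5, Krt10 and Krt14, typical of skin.

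A keratin filament is built from a type I and a type II keratin: Krt18 with Krt8 in simple epithelium, Krt14 with Krt5 in basal epidermis and myoepithelium, Krt10 with Krt1 in the upper epidermis. Claudins span the membrane at tight junctions and set which ions and solutes pass between cells. Cldn3, Cldn4 and Cldn7 are common in mammary and other glandular epithelia, and carcinomas of glandular origin usually keep simple-epithelial keratins.

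The tumours grew from 1 cell line, 4T1, a mammary carcinoma of Balb/C mice, after 100000 cells were placed in the left mammary fat pad 4 of Balb/C hosts. Hosts were aged (over 12 months) or young (8 to 10 weeks by the labels of the samples, 8 to 12 weeks by the growth protocol). Each received 1 antibody intraperitoneally, 200 µg at a time, on days 7, 10 and 13: anti-CTLA4 (clone 9D9), anti-PD-L1 (clone 10F.9G2) or the isotype control (clone LTF-2). There were 8 aged and 12 young anti-CTLA4 libraries, 8 aged and 10 young anti-PD-L1 libraries, and 7 aged and 7 young isotype libraries. Tumours of up to about 150 mm3 were sequenced whole, and in such bulk RNA fewer cells of a type and less RNA per cell cannot be told apart. The labels number biological replicates and name no animals, so a p-value here reflects the spread from library to library only.

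Library totals lay between 9549847 and 53778370 counts. Sequencing batches were uneven. In batches 1, 2 and 3 there were 7, 0 and 1 aged and 4, 3 and 5 young anti-CTLA4 libraries, 8, 0 and 0 aged and 0, 9 and 1 young anti-PD-L1 libraries, and 3, 0 and 4 aged and 0, 7 and 0 young isotype libraries. Aged and young hosts thus shared no batch under anti-PD-L1 or isotype, where age and batch cannot be told apart without the other groups. In 15 libraries, spread over all groups, the B cell gene Cd79a was above 20 TPM. A normalization factor under 0.8 was found in 4 libraries (aged isotype replicate 3, young anti-CTLA4 replicate 8, young isotype replicates 1 and 6). Young anti-CTLA4 replicate 8 belongs to both of these sets.

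Levels between genes are given in TPM, which corrects for transcript length and library size. Krt18 and Krt8 made up most of the keratin pool, with mean levels of 748 and 500.1 TPM over all libraries. Krt7 (63.5 TPM), Krt19 (43.8 TPM) and Krt14 (14.0 TPM) followed, and Krt10, Krt15, Krt80, Krt5 and Krt13 averaged between 1.78 and 2.47 TPM. Ranges over libraries overlapped between neighbours in this order, although Krt18 was above Krt8 within each of the 52 libraries, at 1.03 to 2.27 times its TPM. With the copy Krt8-ps, described below, added to Krt8 the ratio ran from 0.746 to 1.70, and Krt18 was above the sum in 39 libraries and below it in 13. The carcinoma keratins held 93.1% to 98.9% of keratin TPM in a library. Their lowest summed level, 262 TPM, was in young anti-CTLA4 replicate 8.

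Among the claudins, the glandular Cldn4, Cldn3 and Cldn7 averaged 50.2, 38.1 and 19.3 TPM. Cldn12 (11.0 TPM), Cldn5 (8.53 TPM), Cldn2 (6.39 TPM) and Cldn15 (1.51 TPM) came next. The 3 glandular claudins held 48.4% to 84.2% of claudin TPM. Of the 73 members, 17 had a mean of at least 1 TPM, and Krt34, Krt40 and Cldn16 had no count in any library. The genes the results turn on lie, in GENCODE vM21 on GRCm38, as follows: Krt7 (ENSMUSG00000023039, chr15:101411043-101430313, plus strand), Krt8 (ENSMUSG00000049382, chr15:101996698-102004482, minus strand), Krt18 (ENSMUSG00000023043, chr15:102028180-102032027, plus strand), Krt19 (ENSMUSG00000020911, chr11:100140810-100148665, minus strand), Cldn3 (ENSMUSG00000070473, chr5:134986214-134987472, plus strand) and Cldn4 (ENSMUSG00000047501, chr5:134945119-134946934, minus strand). Krt8 and Krt18 stand head to head with starts 23698 bases apart.

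**Figure D1:**
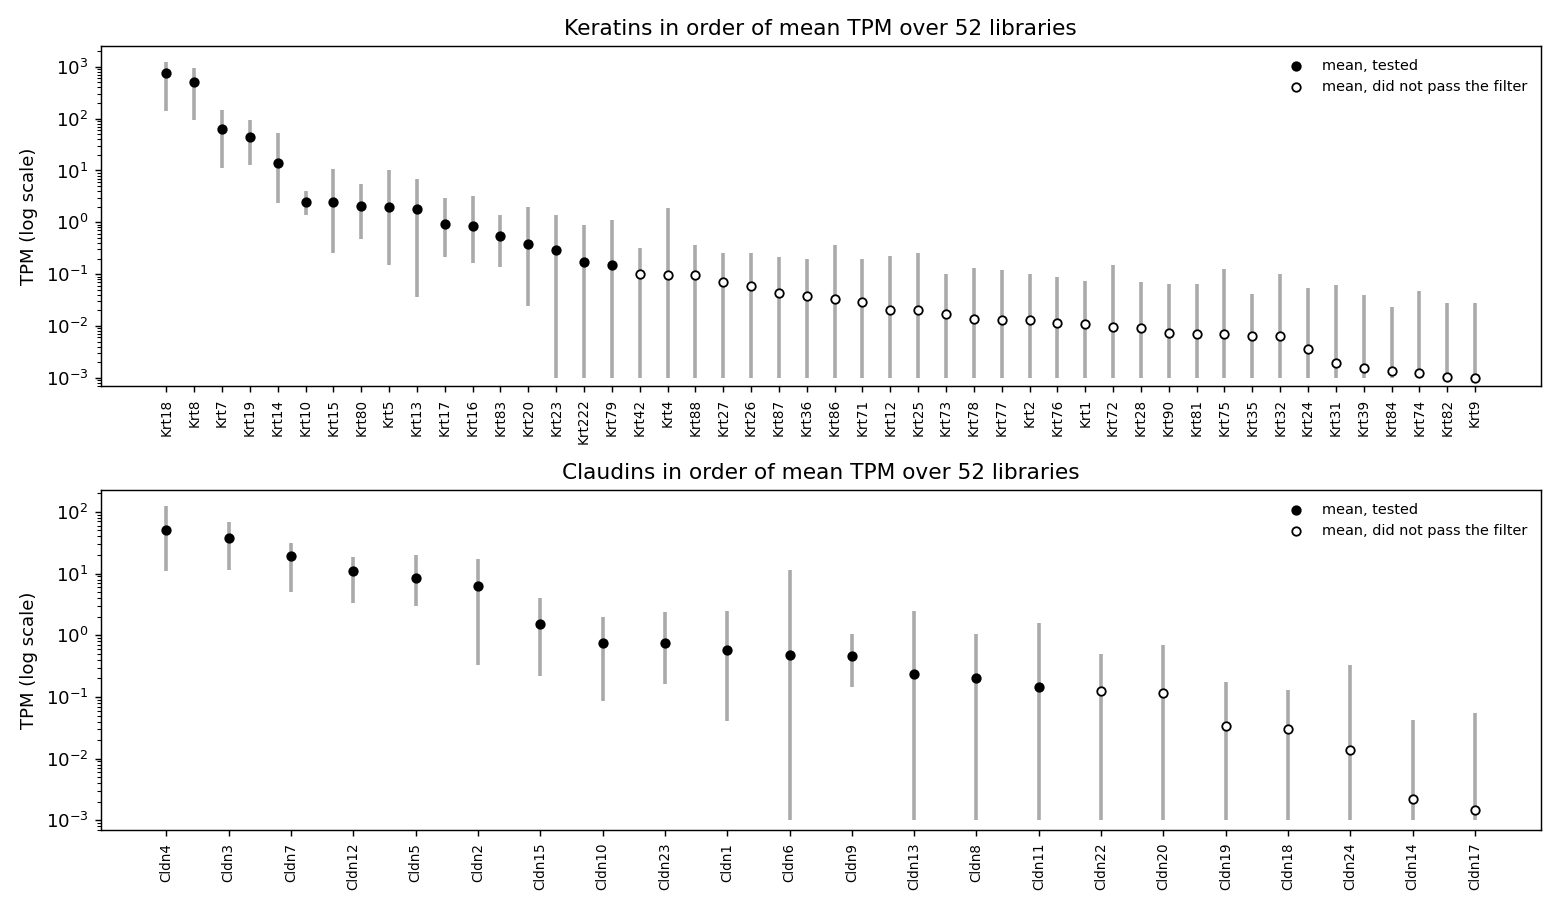
Mean level in TPM (vertical axis, log scale) of each keratin (top) and claudin (bottom) that had a count, in order of mean over 52 libraries; grey lines run from the lowest to the highest library and end at 0.001 where the lowest is 0. Filled points mark the 32 members that passed the filter on low counts. Krt18 and Krt8 stand above all other keratins.

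The filter on low counts left 32 members (17 keratins, 15 claudins) among 17899 genes, and counts of members below refer to these 32. The 41 others reached at most 1.92 TPM and at most 119 counts in any library. Symbols with a letter or suffix after the digits are not members, but 1 bears on Krt8: the processed pseudogene Krt8-ps averaged 178 TPM and matches Krt8 at 98.6% identity over 941 of its 1958 transcript bases. It held 11.0% to 16.4% of the summed counts of both and 20.5% to 29.0% of their summed TPM, so how much of this signal belongs to Krt8 is uncertain by up to these shares.

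The upstream windows of Krt7, Krt18, Cldn2 and Cldn4 are shown because these genes were higher in aged hosts under anti-CTLA4 without each library in turn. Cldn12 kept its call too, but has 3 overlapping windows from different starts and is not shown. They are RefSeq windows of GRCm38.p6, up to 250 bases before the start, 5′ to 3′ on the strand of the gene, without bases that overlap exons of protein-coding transcripts. Capitals mark matches on either strand to GGGCGG (GC box), TGANTCA (AP-1 element), CAGGTG (E-box) and TATAAA. Krt7 (chr15:101412153-101412401, plus strand) held 4 GC boxes and 1 E-box, Krt18 (chr15:102027966-102028179, plus strand) 1 E-box, Cldn2 (chrX:139800558-139800807, plus strand) 1 TATAAA, and Cldn4 (chr5:134946935-134947184, minus strand) 1 GC box, 2 AP-1 elements and 1 E-box. The Krt7 window lies inside the GENCODE span of the gene, whose outermost start is further upstream.
Krt7: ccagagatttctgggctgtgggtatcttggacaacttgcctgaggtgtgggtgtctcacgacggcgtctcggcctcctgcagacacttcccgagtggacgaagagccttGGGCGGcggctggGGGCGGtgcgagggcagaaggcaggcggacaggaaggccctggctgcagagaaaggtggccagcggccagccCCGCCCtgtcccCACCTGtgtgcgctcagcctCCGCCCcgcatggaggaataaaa
Krt18: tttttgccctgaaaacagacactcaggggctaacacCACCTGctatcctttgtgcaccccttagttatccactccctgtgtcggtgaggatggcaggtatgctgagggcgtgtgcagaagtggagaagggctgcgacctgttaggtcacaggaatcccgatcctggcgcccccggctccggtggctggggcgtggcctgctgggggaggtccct
Cldn2: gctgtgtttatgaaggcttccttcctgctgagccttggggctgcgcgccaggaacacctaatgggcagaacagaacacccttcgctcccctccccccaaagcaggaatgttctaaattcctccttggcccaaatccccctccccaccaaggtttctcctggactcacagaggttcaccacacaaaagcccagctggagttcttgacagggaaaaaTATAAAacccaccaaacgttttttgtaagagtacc
Cldn4: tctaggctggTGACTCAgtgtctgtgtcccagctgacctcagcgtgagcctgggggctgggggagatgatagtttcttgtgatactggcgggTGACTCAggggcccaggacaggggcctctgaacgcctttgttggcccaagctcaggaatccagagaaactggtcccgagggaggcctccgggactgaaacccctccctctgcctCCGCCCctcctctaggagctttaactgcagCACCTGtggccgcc
Over 32851 windows of 250 bases, 32.7% held GGGCGG, 6.75% TGANTCA, 17.2% CAGGTG and 12.4% TATAAA. Of the 32 tested members 21 had a window, and 7, 3, 9 and 3 of these held the motifs in the same order. A match describes letters in a window, not a site in use.

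Members passed the test with host age, and by edgeR none passed with antibody. The test was edgeR's quasi-likelihood test with Benjamini-Hochberg adjustment over all genes, at an adjusted p of 0.05. Under anti-CTLA4, 10 of 32 members differed between aged and young hosts (8 higher and 2 lower in aged), beside 30.6% of all genes (14.8% higher, 15.9% lower). Under anti-PD-L1 1 member was higher in aged hosts, beside 5.04% of all genes (3.08% higher, 1.97% lower). Under isotype 4 were higher and 1 lower, beside 8.41% of all genes (4.36% higher, 4.04% lower). The median log2 fold change over the 32 members was 0.09, 0.10 and 0.42 under anti-CTLA4, anti-PD-L1 and isotype, against -0.06, -0.06 and -0.09 over all genes.

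**Figure D2:**
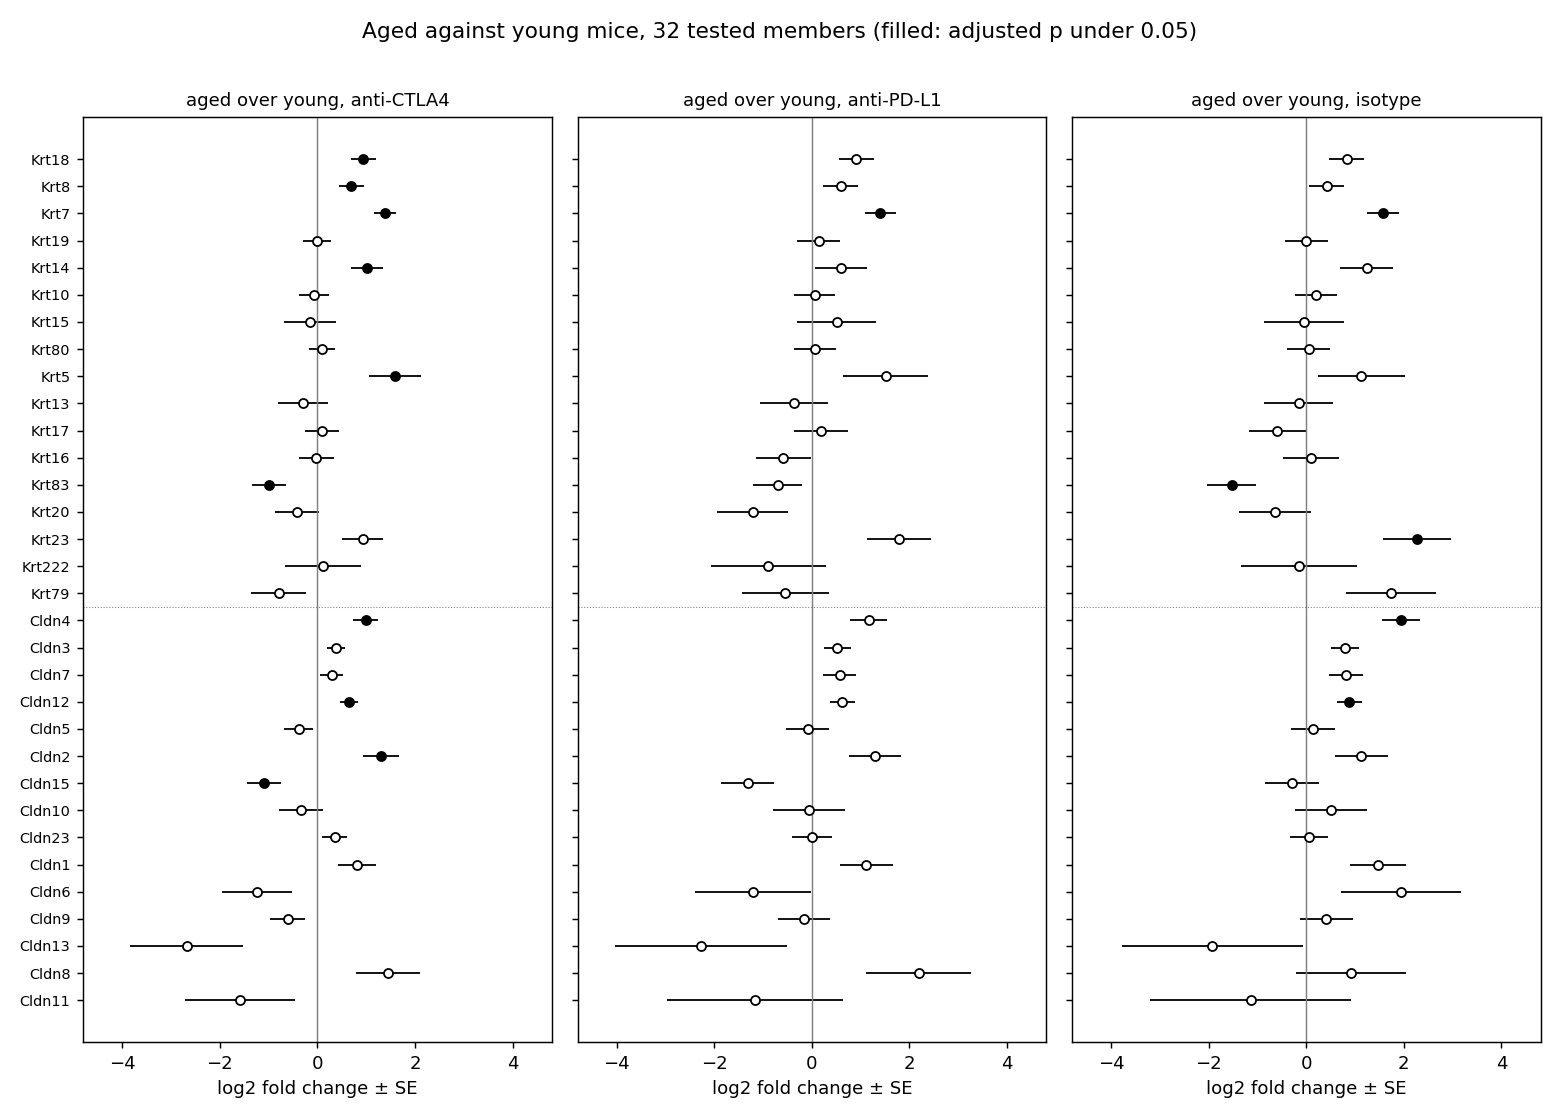
Log2 fold change of aged over young hosts (horizontal axis, bars are SE) for the 32 tested members under anti-CTLA4, anti-PD-L1 and isotype, keratins above the dotted line and claudins below it. Filled points have an edgeR adjusted p under 0.05 (10, 1 and 5 members). Krt7 is filled in all 3 panels.

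Krt7, a type II keratin of ductal epithelium, was the 1 member that passed under all 3 antibodies, higher in aged hosts each time. Under anti-CTLA4 its lowest, median and highest levels were 67.8, 85.4 and 126 TPM in aged mice, against 11.2, 28.9 and 58.0 TPM in young mice. All 8 aged libraries lay above all 12 young ones. Krt7 was the 1 of 32 members whose aged and young groups did not overlap under anti-CTLA4, beside 1.54% of all genes; under anti-PD-L1 and isotype it was 0 members, beside 1.6% and 3.25% of all genes. The log2 fold change in normalized counts was 1.38 ± 0.22 (SE; edgeR adjusted p = 1.27e-05). Under anti-PD-L1 the levels were 72.6, 88.6 and 146 TPM in aged mice, against 24.9, 50.0 and 116 TPM in young mice. There 9 of 10 young libraries lay under the lowest aged one, and young replicate 4 was the exception. In log2 terms the difference was 1.41 ± 0.32 (edgeR adjusted p = 0.0104). Under isotype the levels were 43.0, 82.9 and 119.6 TPM in aged mice, against 22.2, 40.2 and 81.3 TPM in young mice. Ranges overlapped, with 4 of 7 aged libraries above all young ones, and the log2 fold change was 1.57 ± 0.33 (edgeR adjusted p = 0.00305).

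The Krt7 calls held without each library in turn, and a replicate block ended the anti-PD-L1 call only. Under anti-PD-L1 and isotype, where the ages share no batch, the log2 fold changes above rest on batch terms estimated through other groups. With no batch term the log2 fold changes were 1.20 ± 0.20, 0.86 ± 0.21 and 0.98 ± 0.24 under anti-CTLA4, anti-PD-L1 and isotype (edgeR adjusted p = 2.55e-05, 0.00445 and 0.00347). Within batch 1, with 7 aged and 4 young anti-CTLA4 libraries, Krt7 had 1.27 ± 0.24 (edgeR adjusted p = 0.00525), and within batch 3, with 1 and 5, 1.66 ± 0.62 (edgeR adjusted p = 0.275; the lone aged library is assumed to vary like the young ones). Without the 15 B cell rich libraries Krt7 had 1.01 ± 0.24, 0.98 ± 0.36 and 1.20 ± 0.36 (edgeR adjusted p = 0.00672, 0.0889 and 0.0346), which ends the anti-PD-L1 call. As a share of carcinoma keratin TPM, the median for Krt7 was 5.20% in aged and 3.28% in young anti-CTLA4 tumours, 5.50% in aged and 3.71% in young anti-PD-L1 tumours, and 6.18% in aged and 3.88% in young isotype tumours.

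Epcam, an adhesion protein of epithelium outside both families, moved with Krt7. Its median was 125 TPM in aged and 58.4 TPM in young anti-CTLA4 tumours, 108 TPM in aged and 74.7 TPM in young anti-PD-L1 tumours, and 119 TPM in aged and 58.0 TPM in young isotype tumours. The median ratio of Krt7 to Epcam TPM was 0.735 in aged and 0.549 in young anti-CTLA4 tumours, 0.837 in aged and 0.622 in young anti-PD-L1 tumours, and 0.754 in aged and 0.747 in young isotype tumours. The part of carcinoma cell content in the Krt7 result was not tested.

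**Figure D3:**
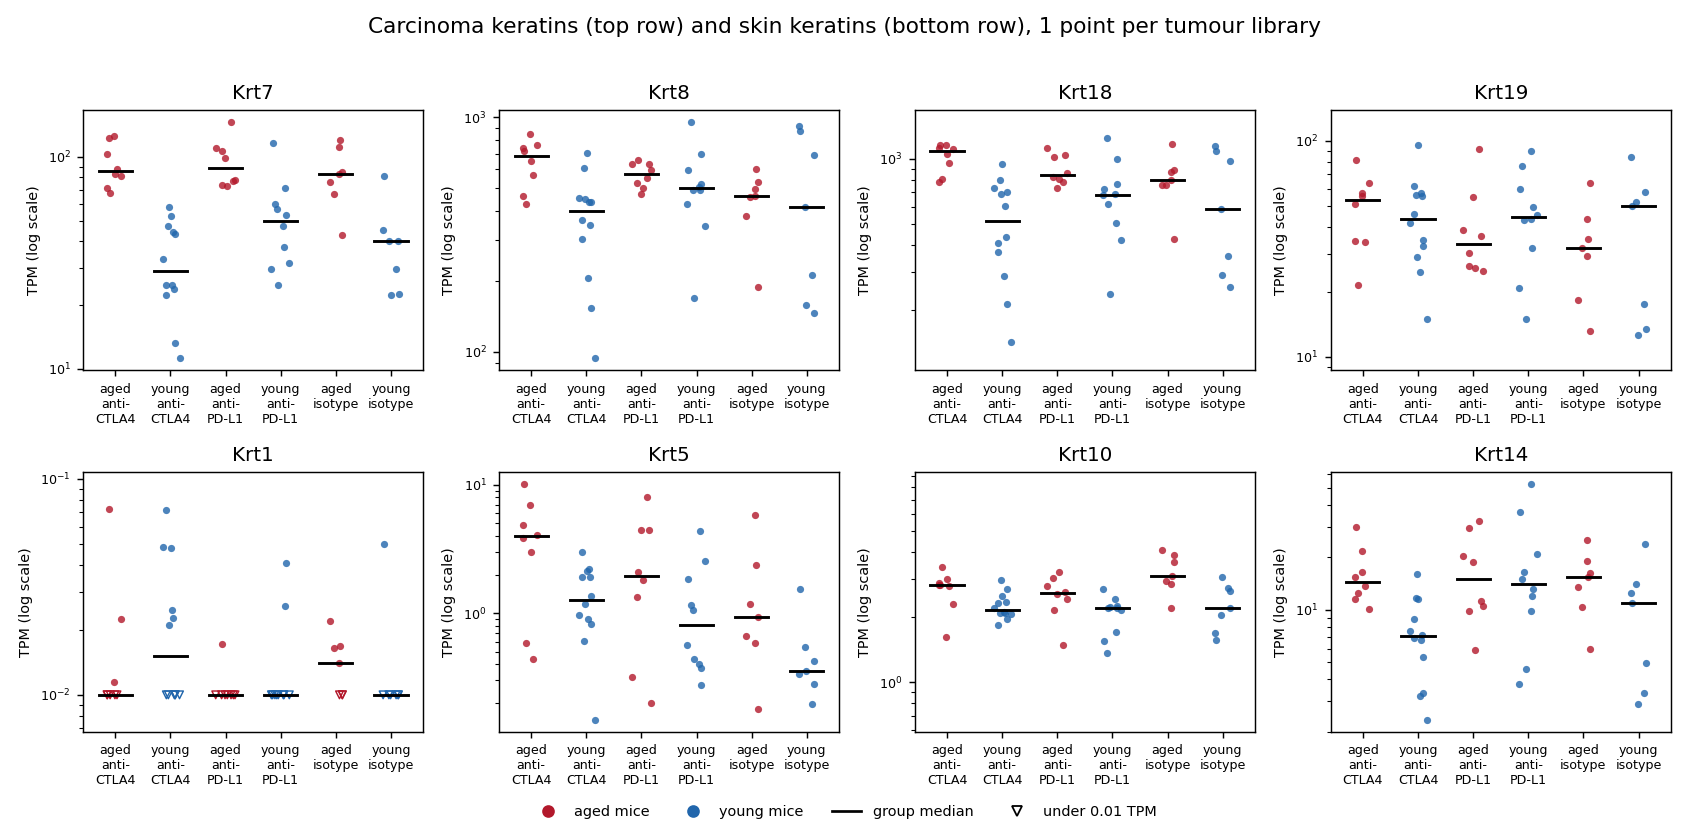
TPM (log scale) of carcinoma keratins (top) and skin keratins (bottom) in 6 groups, 1 point per library, red for aged and blue for young mice, black bars at group medians and open triangles for values under 0.01 TPM. Aged and young anti-CTLA4 tumours do not overlap for Krt7, and Krt1 lies near 0 in all groups.

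Krt18, the type I keratin of simple epithelium, was higher in aged than in young hosts under anti-CTLA4. Its levels were 785, 1084 and 1158 TPM in aged mice, against 141, 518 and 944 TPM in young mice. The ranges overlapped, with 6 of 8 aged libraries above all young ones and 10 of 12 young libraries below all aged ones. The fitted log2 fold change was 0.94 ± 0.26 (edgeR adjusted p = 0.00529), and 1.09 ± 0.22 within batch 1 (edgeR adjusted p = 0.00703). Under anti-PD-L1 the levels were 733, 845 and 1118 TPM in aged mice, against 236, 683 and 1255 TPM in young mice, and under isotype 427, 799.7 and 1168 TPM in aged mice, against 256, 584 and 1144 TPM in young mice. Both pairs overlapped, and the log2 fold changes of 0.91 ± 0.36 and 0.83 ± 0.36 did not pass (edgeR adjusted p = 0.123 and 0.141).

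Krt8, the type II partner of Krt18, was higher in aged hosts under anti-CTLA4, at 426, 684 and 846 TPM in aged mice, against 94.0, 399 and 703 TPM in young mice. Aged and young ranges overlapped, with 4 of 8 aged libraries above all young ones. This was a log2 fold change of 0.69 ± 0.26 (edgeR adjusted p = 0.0360), and with Krt8-ps counts added it was 0.74 ± 0.26 (edgeR adjusted p = 0.0259). The call was lost without any of 5 libraries (aged anti-CTLA4 replicates 3 and 8, young anti-CTLA4 replicates 6, 8 and 9; adjusted p up to 0.101). It was also lost with no batch term, without the 4 low-factor libraries and without the B cell rich ones (edgeR adjusted p = 0.0741, 0.0718 and 0.204). Both of these library sets include young anti-CTLA4 replicate 8, so those checks are not separate from its removal alone. Under anti-PD-L1 and isotype the Krt8 log2 fold changes were 0.59 ± 0.36 and 0.42 ± 0.36 (edgeR adjusted p = 0.340 and 0.500).

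The ratio of Krt18 to Krt8 TPM had a median of 1.61 in aged and 1.38 in young anti-CTLA4 tumours, 1.57 in aged and 1.34 in young anti-PD-L1 tumours, and 1.76 in aged and 1.42 in young isotype tumours. Its ranges overlapped in each pair of groups, and the ratio was not tested. With Krt8-ps added to Krt8 the median ratio was 1.17 in aged and 1.05 in young anti-CTLA4 tumours, 1.156 in aged and 0.971 in young anti-PD-L1 tumours, and 1.27 in aged and 1.07 in young isotype tumours.

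Krt19, a type I keratin of ductal epithelium that lacks the usual tail domain, did not pass. Under anti-CTLA4 its levels were 21.6, 53.3 and 81.4 TPM in aged mice, against 15.0, 43.6 and 95.9 TPM in young mice, and the aged range lay inside the young one. Under anti-PD-L1 they were 24.9, 33.2 and 91.3 TPM in aged mice, against 15.0, 44.5 and 89.96 TPM in young mice, and under isotype 13.1, 31.9 and 63.7 TPM in aged mice, against 12.6, 49.8 and 84.4 TPM in young mice. The log2 fold changes were -0.02 ± 0.28, 0.14 ± 0.44 and 0.01 ± 0.44 under anti-CTLA4, anti-PD-L1 and isotype (edgeR adjusted p = 0.971, 0.885 and 0.996). Whether Krt19 and Krt7 differ in their change with age was not tested.

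Of the skin keratins, Krt1, the type II keratin of the upper epidermis, averaged 0.0109 TPM, reached at most 0.0729 TPM and did not pass the filter. Its partner Krt10 lay between 1.37 and 4.08 TPM in all libraries, with a median of 2.82 TPM in aged and 2.17 TPM in young anti-CTLA4 tumours, 2.59 TPM in aged and 2.20 TPM in young anti-PD-L1 tumours, and 3.10 TPM in aged and 2.20 TPM in young isotype tumours. Its log2 fold changes with age were -0.07 ± 0.30, 0.06 ± 0.42 and 0.21 ± 0.43, and none passed (edgeR adjusted p = 0.884, 0.951 and 0.810). Of 20 epidermal markers that are not keratins, 11 stayed under 1 TPM in every library, among them Lor (loricrin, at most 0.225 TPM) and Flg (filaggrin, at most 0.0411 TPM). The other 9 reached 1 TPM, and 6 of the 20 were above 0 in all 52 libraries. Lgals7 (galectin 7) had a median of 12.1 TPM and a highest level of 25.7 TPM, Sbsn and Asprv1 reached 12.8 TPM each, and Dmkn reached 6.21 TPM. The summed level of the 20 had a median of 19.8 TPM in aged and 25.1 TPM in young anti-CTLA4 tumours, 18.8 TPM in aged and 24.6 TPM in young anti-PD-L1 tumours, and 22.3 TPM in aged and 18.2 TPM in young isotype tumours.

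Krt14, a type I keratin of basal and myoepithelial cells, was higher in aged hosts under anti-CTLA4, at 10.1, 14.5 and 30.1 TPM in aged mice, against 2.34, 7.07 and 16.1 TPM in young mice. The groups overlapped, with 9 of 12 young libraries below all aged ones. The log2 fold change was 1.02 ± 0.33 (edgeR adjusted p = 0.0153). The call was lost without aged anti-CTLA4 replicate 8 (0.75, edgeR adjusted p = 0.142), within batch 1 and without the B cell rich libraries (edgeR adjusted p = 0.161 and 0.158). Under anti-PD-L1 the Krt14 levels were 5.88, 15.0 and 32.6 TPM in aged mice, against 3.75, 14.1 and 53.2 TPM in young mice, and under isotype 5.98, 15.4 and 25.4 TPM in aged mice, against 2.87, 11.0 and 24.0 TPM in young mice. Both pairs overlapped, and neither log2 fold change passed (0.59 ± 0.54 and 1.24 ± 0.54, edgeR adjusted p = 0.550 and 0.145).

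Krt5, the type II partner of Krt14, was likewise higher in aged hosts under anti-CTLA4, at 0.440, 3.97 and 10.2 TPM in aged mice, against 0.147, 1.26 and 3.00 TPM in young mice. Ranges overlapped, with 5 of 8 aged libraries above all young ones. In log2 terms the difference was 1.59 ± 0.53 (edgeR adjusted p = 0.0191), and it too was lost without aged anti-CTLA4 replicate 8 (edgeR adjusted p = 0.0747), within batch 1 (0.139) and without the B cell rich libraries (0.235). Under anti-PD-L1 and isotype its log2 fold changes were 1.52 ± 0.87 and 1.13 ± 0.90 (edgeR adjusted p = 0.315 and 0.456). Of 10 myoepithelial markers outside the keratins, 2 were higher in aged hosts under anti-CTLA4 (Cnn1, 0.97 ± 0.33, edgeR adjusted p = 0.0225; Sparcl1, 0.75 ± 0.28, edgeR adjusted p = 0.0383), and none passed under anti-PD-L1 or isotype; the share of all genes higher in aged hosts under anti-CTLA4 was 14.8%. The list median of the log2 fold change was 0.065, -0.131 and 0.0988 under anti-CTLA4, anti-PD-L1 and isotype, with 7, 4 and 5 of the 10 positive. The summed level of these markers ran from 134 to 250.5 TPM in aged and from 78.8 to 219 TPM in young anti-CTLA4 tumours. The part of myoepithelial cells in the Krt14 and Krt5 results was not tested.

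Krt83, a type II hair keratin, was lower in aged hosts under anti-CTLA4 and isotype. Its levels were 0.301, 0.535 and 0.798 TPM in aged mice, against 0.228, 0.844 and 1.30 TPM in young mice under anti-CTLA4, and 0.137, 0.285 and 0.742 TPM in aged mice, against 0.281, 0.576 and 1.37 TPM in young mice under isotype. Both pairs overlapped. The log2 fold changes were -0.99 ± 0.35 and -1.52 ± 0.51 (edgeR adjusted p = 0.0286 and 0.0493). The isotype call was lost without any of 10 of the 14 libraries (all but aged replicate 7 and young replicates 1, 4 and 6), and the anti-CTLA4 call without aged replicate 8 or young replicate 8. Both were lost without the B cell rich libraries (edgeR adjusted p = 0.243 and 0.147) and without the low-factor ones (0.0830 and 0.0633). Young anti-CTLA4 replicate 8 is in both of those library sets. Krt83 shares 95.1% identity over 1383 bases with Krt81, which had 16 counts in all libraries together.

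Krt23, a type I keratin, was higher in aged hosts under isotype, at 0.0870, 0.396 and 0.515 TPM in aged mice, against 0, 0.122 and 0.319 TPM in young mice. Aged and young ranges overlapped, with 5 of 7 aged libraries above all young ones. The fitted log2 fold change was 2.27 ± 0.70 (edgeR adjusted p = 0.0349), and the call was lost without aged isotype replicate 2 or young isotype replicate 5 (adjusted p up to 0.0772) and without the B cell rich libraries (0.0504). Under anti-CTLA4 and anti-PD-L1 its log2 fold changes were 0.93 ± 0.42 and 1.78 ± 0.65 (edgeR adjusted p = 0.0845 and 0.0974).

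The other named keratins, Krt15, Krt80, Krt13, Krt17, Krt16 and Krt20, passed under no antibody. Their log2 fold changes with age lay between -1.21 and 0.51. Krt15, of basal epithelium, reached 10.9 TPM and Krt13, of stratified mucosa, 6.97 TPM in their highest library, while Krt80, Krt16, Krt17 and Krt20 reached 5.53, 3.15, 3.01 and 1.96 TPM. Among the remaining tested members, Krt222, Krt79, Cldn8, Cldn11 and Cldn13, no age difference passed either (log2 fold changes between -2.68 and 2.19).

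Cldn4, a barrier-forming claudin, was higher in aged hosts under anti-CTLA4 and isotype. Under anti-CTLA4 its levels were 42.2, 71.9 and 87.6 TPM in aged mice, against 11.1, 24.6 and 63.3 TPM in young mice. The groups overlapped, with 5 of 8 aged libraries above all young ones. This was a log2 fold change of 0.99 ± 0.26 (edgeR adjusted p = 0.00314), within batch 1 0.73 ± 0.29 (edgeR adjusted p = 0.0863) and without the B cell rich libraries 0.76 ± 0.28 (edgeR adjusted p = 0.0623). Under isotype the levels were 26.3, 64.3 and 108 TPM in aged mice, against 21.9, 28.2 and 59.2 TPM in young mice. There 4 of 7 aged libraries lay above all young ones. The log2 fold change was 1.94 ± 0.39 (edgeR adjusted p = 0.00224), but 0.76 ± 0.33 with no batch term (edgeR adjusted p = 0.0978). Under anti-PD-L1 the levels were 34.4, 46.6 and 125 TPM in aged mice, against 18.3, 47.1 and 86.5 TPM in young mice, with nearly equal medians. The fitted log2 fold change of 1.17 ± 0.38 did not pass (edgeR adjusted p = 0.0568), and with no batch term it was 0.38 ± 0.29.

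Cldn12, a claudin without the usual PDZ-binding end, was higher in aged hosts under anti-CTLA4, at 10.8, 13.8 and 15.6 TPM in aged mice, against 3.31, 8.57 and 11.5 TPM in young mice. The groups overlapped at the edges only, with 7 of 8 aged libraries above all young ones and 11 of 12 young libraries below all aged ones. In log2 terms the difference was 0.65 ± 0.18 (edgeR adjusted p = 0.00503), and within batch 1 it was 0.65 ± 0.22 (edgeR adjusted p = 0.0510). Under isotype the levels were 9.60, 14.3 and 15.6 TPM in aged mice, against 5.38, 7.61 and 12.2 TPM in young mice. There 5 of 7 aged libraries lay above all young ones, and the log2 fold change of 0.89 ± 0.26 passed (edgeR adjusted p = 0.0286) but not without aged isotype replicate 2 (edgeR adjusted p = 0.0531). Under anti-PD-L1 it was 0.63 ± 0.26 (edgeR adjusted p = 0.151).

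Cldn2, which forms a cation pore, was higher in aged hosts under anti-CTLA4, at 5.55, 10.1 and 17.0 TPM in aged mice, against 0.874, 4.21 and 8.21 TPM in young mice. Ranges overlapped, with 6 of 8 aged libraries above all young ones. The fitted log2 fold change was 1.31 ± 0.37 (edgeR adjusted p = 0.00647), within batch 1 1.23 ± 0.39 (edgeR adjusted p = 0.0416) and without the B cell rich libraries 0.88 ± 0.45 (edgeR adjusted p = 0.194). Under anti-PD-L1 and isotype it was 1.29 ± 0.53 and 1.13 ± 0.54 (edgeR adjusted p = 0.142 and 0.185).

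Cldn15, a cation channel known from intestine, was lower in aged hosts under anti-CTLA4, at 0.677, 1.40 and 2.08 TPM in aged mice, against 0.329, 1.79 and 4.05 TPM in young mice. Aged and young ranges overlapped, with 6 of 12 young libraries above all aged ones. The log2 fold change of -1.10 ± 0.35 passed (edgeR adjusted p = 0.0139) but not without young anti-CTLA4 replicate 9 (0.0606), within batch 1 (0.119) or without the B cell rich libraries (0.359). Under anti-PD-L1 the levels were 0.351, 0.899 and 2.11 TPM in aged mice, against 1.11, 1.45 and 3.91 TPM in young mice, and 6 of 8 aged libraries lay below all young ones. That log2 fold change, -1.31 ± 0.54, did not pass (edgeR adjusted p = 0.151), and under isotype it was -0.30 ± 0.56 (edgeR adjusted p = 0.786).

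**Figure D4:**
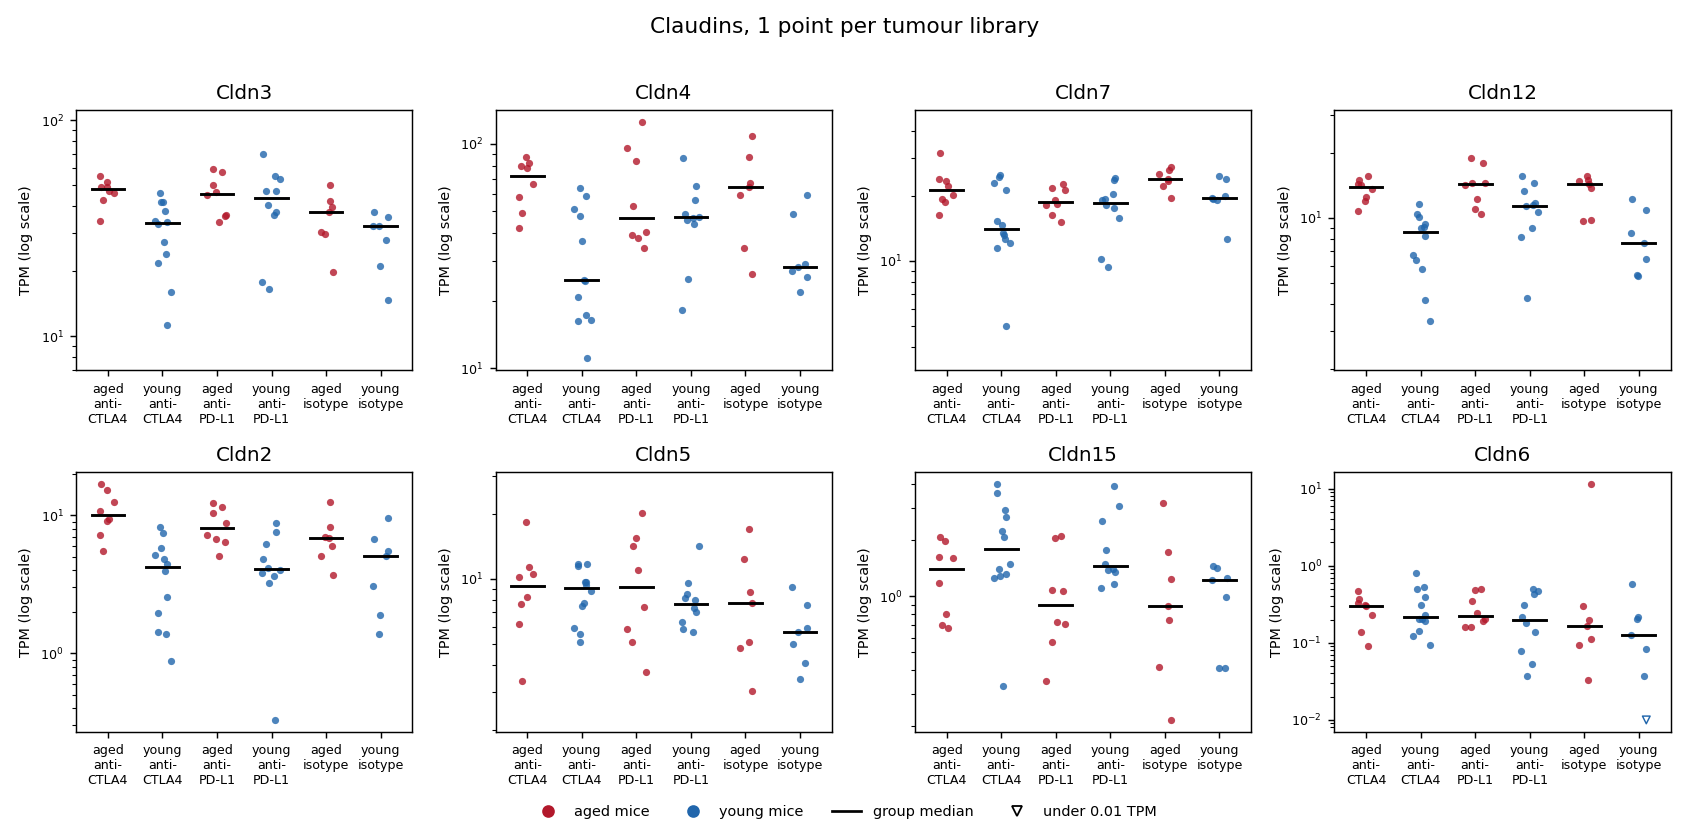
TPM (log scale) of 8 claudins in 6 groups, 1 point per library, red for aged and blue for young mice, with black bars at group medians and an open triangle for a value under 0.01 TPM. Most aged anti-CTLA4 tumours lie above the young ones for Cldn12 and Cldn2, and 1 aged isotype tumour stands apart for Cldn6 at 11.6 TPM.

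Cldn3 and Cldn7, the other glandular claudins, did not pass with age. Cldn3 had 34.3, 48.0 and 55.1 TPM in aged mice, against 11.2, 33.5 and 46.0 TPM in young mice under anti-CTLA4, with overlap. Its log2 fold changes were 0.37 ± 0.18, 0.52 ± 0.28 and 0.80 ± 0.28 under anti-CTLA4, anti-PD-L1 and isotype (edgeR adjusted p = 0.118, 0.270 and 0.0643). Cldn7 had 16.3, 21.2 and 31.5 TPM in aged mice, against 4.97, 14.1 and 25.1 TPM in young mice under anti-CTLA4, with overlap, and log2 fold changes of 0.29 ± 0.23, 0.57 ± 0.34 and 0.82 ± 0.35 in the same order (edgeR adjusted p = 0.350, 0.328 and 0.131).

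Cldn5, the claudin of endothelium, had a median of 9.23 TPM in aged and 9.05 TPM in young anti-CTLA4 tumours, 9.19 TPM in aged and 7.67 TPM in young anti-PD-L1 tumours, and 7.72 TPM in aged and 5.66 TPM in young isotype tumours. Its log2 fold changes with age were -0.39 ± 0.30, -0.09 ± 0.44 and 0.14 ± 0.44 (edgeR adjusted p = 0.331, 0.931 and 0.880). Of 14 endothelial markers outside the claudins, 1 was lower in aged hosts under anti-CTLA4 (Egfl7, -0.84 ± 0.23, edgeR adjusted p = 0.00428), beside 15.9% of all genes, and none passed under the other antibodies. Cldn10, Cldn23, Cldn1 and Cldn9 averaged 0.759, 0.746, 0.569 and 0.454 TPM and passed in no comparison.

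Cldn6, a claudin of embryonic epithelium, stood out in 1 library. It had 11.6 TPM, from 396 counts, in aged isotype replicate 6, while no other library had more than 33 counts. Cldn9, its neighbour on chromosome 17, was at 0.405 TPM there, against a median of 0.429 TPM over all libraries. In aged mice the log2 fold changes of Cldn6 against isotype were -2.94 ± 0.69 for anti-CTLA4 and -3.12 ± 0.70 for anti-PD-L1, and without that library they were 0.38 ± 0.53 and 0.49 ± 0.56.

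Antibody comparisons asked whether either antibody changed the families within an age, and whether its effect differed between ages. By edgeR 0 of 32 members passed for anti-CTLA4 against isotype in aged mice and 0 in young mice, beside 0% and 0.0726% of all genes (in young mice 0.00559% higher and 0.067% lower). For anti-PD-L1 against isotype 0 passed in aged and 0 in young mice, beside 0% and 1.59% of all genes (in young mice 0.223% higher and 1.37% lower). At an unadjusted edgeR p under 0.05 there were 6 and 1 of the 32 members for anti-CTLA4 in aged and young mice, and 4 and 3 for anti-PD-L1. Of all 17899 genes, 5321 and 1247 were under it for anti-CTLA4, and 5379 and 4339 for anti-PD-L1. In each case the share of the members was below that of all genes. For the difference of the antibody effects between ages 0 members passed by edgeR, beside 0% of all genes for each antibody. There 3 members had an unadjusted edgeR p under 0.05 for each, beside 1257 of 17899 genes for anti-CTLA4 and 655 for anti-PD-L1. DESeq2 also called 0 members there, beside 0.101% of all genes for anti-CTLA4 and 0.173% for anti-PD-L1. In aged mice DESeq2 called 1 member, Cldn7, lower under anti-CTLA4 (adjusted p = 0.0443), beside 10.7% of all genes, and under anti-PD-L1 (0.0387), beside 13.3%. In young mice it called 1, Krt83, lower under anti-PD-L1 (0.0445), beside 4.82% of all genes, and 0 under anti-CTLA4, beside 0.285%. In each of these comparisons the share of the 32 members called by DESeq2 was below that of all genes.

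Cldn7 was the abundant member nearest to the threshold. In aged mice its levels were 16.3, 21.2 and 31.5 TPM under anti-CTLA4, 15.2, 18.7 and 22.7 TPM under anti-PD-L1, and 19.5, 23.9 and 27.1 TPM under isotype. The groups overlapped. The log2 fold changes against isotype were -0.69 ± 0.25 for anti-CTLA4 and -0.87 ± 0.27 for anti-PD-L1 (edgeR adjusted p = 0.0957 and 0.0878), and these comparisons share the isotype libraries. Over all 17899 genes the smallest edgeR adjusted p of these comparisons was 0.0956 and 0.0878. Genes outside the families, such as Zeb2, had these same values, so lying near the threshold was not particular to Cldn7. Without aged isotype replicate 5 the Cldn7 log2 fold changes were -0.77 and -0.97 and passed (edgeR adjusted p = 0.0479 and 0.0362), in fits whose share of all genes called is not given. In young mice they were -0.16 ± 0.29 and -0.63 ± 0.23 (edgeR adjusted p = 0.969 and 0.106). Without the B cell rich libraries Cldn7 and Krt10 passed for anti-PD-L1 in young mice, at -0.80 and -0.98 (edgeR adjusted p = 0.0241 and 0.0314), which is 2 of the 29 members tested there, beside 13.4% of all genes.

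For Krt7 the log2 fold changes against isotype were -0.22 ± 0.24 and -0.03 ± 0.27 for anti-CTLA4 in aged and young mice, and -0.10 ± 0.25 and 0.07 ± 0.21 for anti-PD-L1. For Krt18 they were 0.01 ± 0.27, -0.10 ± 0.29, -0.08 ± 0.28 and -0.16 ± 0.24 in the same order. The difference of the anti-CTLA4 effect between aged and young mice was -0.19 ± 0.36 for Krt7 and -0.95 ± 0.42 for Cldn4 (edgeR adjusted p = 0.852 and 0.634).

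Partners of both families were counted from lists made by function, with age as the comparison. Over all genes, 14.8%, 3.08% and 4.36% were higher in aged hosts under anti-CTLA4, anti-PD-L1 and isotype, and 15.9%, 1.97% and 4.04% lower. Of 18 tested tight junction partners, 9 were higher and 0 lower in aged hosts under anti-CTLA4, 1 higher under anti-PD-L1 and 3 higher under isotype. The list median of the log2 fold change was 0.59, 0.39 and 0.22. Marveld3, a membrane partner of claudins, passed under all 3 (log2 fold changes 0.58 ± 0.18, 0.93 ± 0.26 and 1.11 ± 0.27; edgeR adjusted p = 0.0128, 0.0282 and 0.00832). Under anti-CTLA4 the log2 fold changes included those of occludin, Ocln (0.93 ± 0.21, edgeR adjusted p = 0.000820), and of the scaffold Tjp1 (0.75 ± 0.25, edgeR adjusted p = 0.0179). Of 16 tested desmosome and keratin partners, 7 were higher and 0 lower under anti-CTLA4, 0 passed under anti-PD-L1, and 1 was higher (Pkp1) and 1 lower (Tchp) under isotype. Dsp, the plakin that ties keratin filaments to desmosomes, had a log2 fold change of 1.24 ± 0.32 under anti-CTLA4 (edgeR adjusted p = 0.00257), and Pkp1, a desmosomal plaque protein, one of 1.51 ± 0.29 (edgeR adjusted p = 0.000105).

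The lists that follow are read against 30.6%, 5.04% and 8.41% of all genes called under anti-CTLA4, anti-PD-L1 and isotype. Of 18 tested markers of simple epithelium outside the families, 5 were higher and 1 lower in aged hosts under anti-CTLA4, 2 higher and 0 lower under anti-PD-L1, and 2 higher and 1 lower under isotype. Epcam was higher under all 3 (log2 fold changes 1.07 ± 0.19, 0.97 ± 0.27 and 1.21 ± 0.27), and Cdh3, the placental cadherin, was the lower gene (-3.03 ± 0.66 under anti-CTLA4 and -3.67 ± 0.95 under isotype). Of 8 tested epidermal markers, 1 was higher and 4 lower under anti-CTLA4, 1 higher and 2 lower under anti-PD-L1, and 0 passed under isotype. Among the lower, Asprv1, an epidermal protease, had a log2 fold change of -2.76 ± 0.46 under anti-CTLA4 (edgeR adjusted p = 2.46e-05). The higher gene was Calml3, at most 1.05 TPM in any library. Its log2 fold changes were 2.44 ± 0.73 under anti-CTLA4 and 4.47 ± 1.21 under anti-PD-L1 (edgeR adjusted p = 0.00956 and 0.0237). Padi3 was the 1 of 4 tested hair follicle markers that was higher under anti-CTLA4 and under anti-PD-L1. Of 13 tested mammary secretory genes, 2 were higher and 1 lower under anti-CTLA4, and 1, Spp1, was higher under each of the others. Spp1 did not stand for its list under isotype, where 2 of the 13 log2 fold changes were positive. The list median was 0.79, 0.68 and -1.95 under anti-CTLA4, anti-PD-L1 and isotype. Of 12 mesenchymal genes, 1, Twist2, was higher under anti-CTLA4. With both directions pooled, the called share of the simple epithelium, hair follicle, secretory and mesenchymal lists under anti-CTLA4 was thus near or under that of all genes. By direction the simple epithelium list leaned upward, with 5 of 18 higher beside 14.8% of all genes. Under each antibody 14 of its 18 log2 fold changes were positive. Its median was 0.42, 0.30 and 0.36 under anti-CTLA4, anti-PD-L1 and isotype, against -0.06, -0.06 and -0.09 over all genes.

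Relations between members were taken over all 52 libraries on log2 CPM, as 6 relations with 2-sided permutation tests of 100000 resamples. Krt8 with Krt18, the filament partners of simple epithelium, had Pearson r = 0.932 and Spearman rho = 0.89 (permutation p adjusted over the 6 relations 2e-05 and 3e-05), where the raw p of 1e-05 is the smallest the resampling can give. For this pair r was 0.901 once the 2 libraries most distant from the median of the first gene were left out, and 0.956, 0.935 and 0.942 within batches 1, 2 and 3. Cldn3 with Cldn4, neighbours 39280 bases apart on chromosome 5, had Pearson r = 0.753 and Spearman rho = 0.656 (permutation p adjusted over the 6 relations 2e-05 and 3e-05). There r was 0.624 once the 2 libraries most distant from the median of the first gene were left out, and 0.644, 0.54 and 0.854 within batches 1, 2 and 3. Cldn3 with Cldn7 had Pearson r = 0.652 and Spearman rho = 0.448 (permutation p adjusted over the 6 relations 2e-05 and 0.00204). In this case r was 0.436 once the 2 libraries most distant from the median of the first gene were left out, and 0.223, 0.463 and 0.876 within batches 1, 2 and 3, and it did not pass within batches 1 and 2.

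Of the skin pairs, Krt5 with Krt14 had Pearson r = 0.209 and Spearman rho = 0.161 (permutation p adjusted over the 6 relations 0.164 and 0.305). For these r was 0.167 once the 2 libraries most distant from the median of the first gene were left out, and 0.14, 0.432 and 0.386 within batches 1, 2 and 3; on log2(TPM + 1) r was 0.47 and passed. Krt1 with Krt10 had Pearson r = -0.11 and Spearman rho = -0.037 (permutation p adjusted over the 6 relations 0.437 and 0.793), but Krt1 had 32 counts in all libraries together and none in 33 of them, so this r carries no information on the pair. It was -0.099 once the 2 libraries most distant from the median of the first gene were left out, and -0.209, -0.099 and -0.11 within batches 1, 2 and 3. Krt8 with Krt14, across the carcinoma and skin sets, had Pearson r = 0.483 and Spearman rho = 0.352 (permutation p adjusted over the 6 relations 0.000465 and 0.0162). Here r was 0.314 once the 2 libraries most distant from the median of the first gene were left out, and 0.576, 0.177 and 0.688 within batches 1, 2 and 3. It did not pass within batch 2. Spearman rho passed in none of these settings, at 0.274 without the 2 libraries and 0.398, 0.174 and 0.591 within the batches (permutation p adjusted over the 6 relations 0.081, 0.134, 0.475 and 0.0928). All genes of a library share its depth and its carcinoma cell content.

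**Figure D5:**
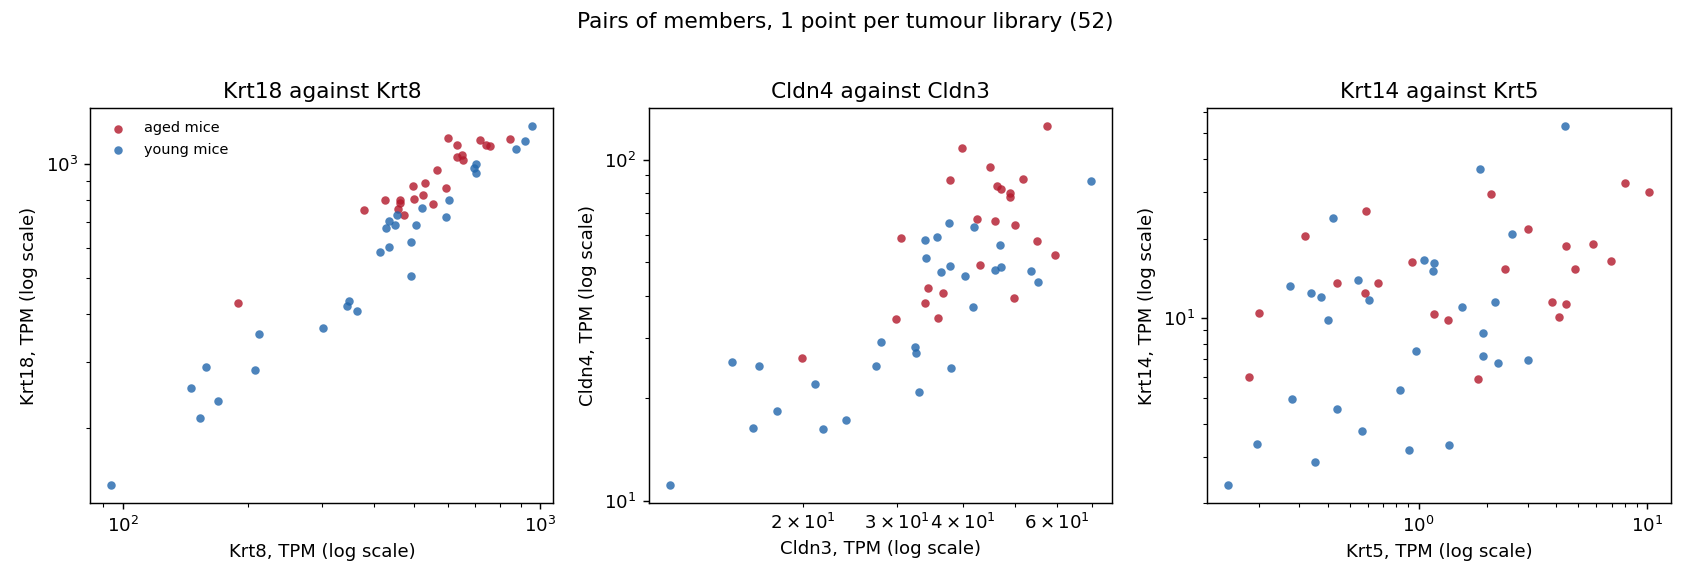
TPM of Krt18 against Krt8, Cldn4 against Cldn3 and Krt14 against Krt5, both axes on log scales, 1 point per library (52), red for aged and blue for young mice. Krt18 and Krt8 lie along a narrow line, Cldn4 and Cldn3 along a wider one, and Krt14 and Krt5 (r = 0.209 on log2 CPM) scatter more widely.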

How the data were processed

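RNA of 52 mammary tumours was sequenced from stranded mRNA libraries (500 ng of RNA, paired reads of 75 bases), per the labels' protocols. Salmon, mm10 and DESeq2 1.16.1 appear in the submitters' processing notes, without a version for Salmon. The deposited tables hold estimated counts per Ensembl gene, as whole numbers, and TPM per gene, both as the authors made them. Symbols and positions came from GENCODE vM21 (GRCm38).

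The estimated counts were fitted once over all libraries with group and sequencing batch in edgeR 4.0.16 under R 4.3.3, with TMM factors and filterByExpr. Quasi-likelihood tests gave 9 comparisons: 3 of aged with young, 4 of an antibody with isotype and 2 of the difference of antibody effects between ages. P-values were adjusted by Benjamini-Hochberg over 17899 genes (threshold 0.05), and SE is the size of the log2 fold change divided by the square root of F. The procedure was tested on simulated data for aged against young hosts under isotype and under anti-CTLA4. No batch effect was simulated, so that test does not bear on the separation of age from batch. Alternatives were DESeq2 1.42.0, RLE factors, no filter, no batch term, a replicate block, only the 2 groups compared and single batches. With only the 2 groups, aged against young under anti-PD-L1 or isotype was fitted without a batch term, since these groups share no batch. Chosen after seeing the data were fits without low-factor libraries, without libraries above 20 TPM of Cd79a, without each library, and with Krt8-ps counts added to Krt8, a copy found with blastn 2.17.0. No 2 libraries of a group agreed within sampling noise (smallest chi-square per degree of freedom 19.2). Precision did not follow counts alone. For aged against young hosts under anti-CTLA4, Krt18, with 1157298 counts over all libraries, had an SE of 0.26. Cldn12, with 41652 counts, had an SE of 0.18.

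The members and lists were chosen with earlier results of these data known. Named are the 8 carcinoma and skin keratins, every member that passed, the 8 other keratins and 12 claudins of highest mean TPM, and any member whose highest library reached 5 TPM and 10 times its median.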

Additional observations from a re-analysis of the deposited data

Results flagged for a closer look

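Sets of 1 named member in 1 group of up to 10 libraries were checked, 110 in all. In 19 of them the gap of a library to the nearest other exceeded Dixon's 95% limit. That limit gives about 1 in 20 for independent, normally distributed values. Normality of TPM was not tested and the sets share libraries, so the 19 cannot be set against that rate. Aged anti-PD-L1 replicate 8 was high for Krt19 (91.3 TPM), Krt23 (1.37 TPM), Krt15 (4.08 TPM) and Krt17 (3.01 TPM). Aged isotype replicate 4 was high for Krt5 (5.81 TPM), Krt15 (6.93 TPM), Krt17 (1.19 TPM) and Cldn1 (2.09 TPM). Young isotype replicate 7 was high for Krt7 (81.3 TPM, with the next at 45.0 TPM), Krt5 (1.55 TPM) and Krt17 (2.53 TPM).

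Young anti-PD-L1 replicate 4 was high for Krt7 (116 TPM, with the next at 71.7 TPM) and Cldn23 (2.36 TPM), young anti-PD-L1 replicate 5 for Krt13 (5.65 TPM) and Krt17 (2.79 TPM), and young anti-PD-L1 replicate 6 for Cldn5 (14.2 TPM). Cldn1 was high in aged anti-CTLA4 replicate 6 (2.50 TPM), Cldn9 in aged anti-PD-L1 replicate 5 (1.05 TPM) and Cldn6 in aged isotype replicate 6 (11.6 TPM, with the next at 0.303 TPM).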

How the results depend on the processing

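No call of the fit reported above reversed its direction under the alternatives run. Between aged and young hosts under anti-CTLA4, 10 members passed, against 5 within batch 1, 0 within batch 3 and 3 without the B cell rich libraries; the share of all genes called moved too, being 30.6%, against 21.98%, 0.149% and 13.7%. Under anti-PD-L1 1 passed, against 4 with no batch term, 3 with only the 2 groups, 2 by DESeq2, and 0 without the B cell rich libraries or with a replicate block (all genes 5.04%, against 12.2%, 13.2%, 8.56%, 5.15% and 0.196%). The fit with only the 2 groups also held no batch term there, since these groups share no batch. Under isotype 5 passed, against 3 with no filter and 3 without the B cell rich libraries (all genes 8.41%, against 3.21% and 8.4%). For antibody against isotype 0 passed, but DESeq2 gave 1 for anti-CTLA4 in aged mice and 1 for anti-PD-L1 in aged and in young mice, beside 10.7%, 13.3% and 4.82% of all genes. With no batch term 1 passed for anti-PD-L1 in aged mice (Cldn6, beside 0.464% of all genes), whose sign turned without aged isotype replicate 6 in the fit with the batch term (0.49), and without the B cell rich libraries 2 in young mice (beside 13.4%). The relation of Krt5 with Krt14 passed on log2(TPM + 1) (r = 0.47). The cause of these moves was not tested, and the fits within batches also had fewer libraries.

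Without each library in turn, 7 to 11 members passed with age under anti-CTLA4, 1 to 3 under anti-PD-L1 (3 without young replicate 1, and 2 without aged replicates 2, 5 or 6 or young replicate 10) and 2 to 7 under isotype (2 without aged replicate 2, 3 without young replicate 5). For anti-CTLA4 against isotype 0 to 2 passed in aged mice (2 without aged isotype replicate 5) and 0 to 0 in young mice. For anti-PD-L1 against isotype it was 0 to 3 in aged mice (3 without aged isotype replicate 5) and 0 to 1 in young mice (1 without young isotype replicates 4 or 7 or young anti-PD-L1 replicate 1), and for both differences of antibody effects 0 to 0. The share of all genes called without each library is not given, so these ranges cannot be set against it or read as particular to the members. Same-numbered libraries of different groups did not deviate together (mean correlation 0.0051 over 113 pairs), so the numbers do not pair them. With the replicate block 7, 0 and 4 members passed with age under anti-CTLA4, anti-PD-L1 and isotype, beside 23.9%, 0.196% and 4.2% of all genes. Depth limits the members under 1 TPM.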
